A study of Mus musculus with 18 samples.

Results

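Integrins are receptors of the cell surface made of an alpha and a beta subunit, and laminins are trimers of an alpha, a beta and a gamma chain that form the sheet of the basement membrane. The genes described here are those of the count table with the symbols of integrin alpha subunits (Itga), integrin beta subunits (Itgb) and laminin chains (Lama, Lamb, Lamc). They number 37 of 23337 genes, with 18 alpha and 8 beta subunits of integrins and 5 alpha, 3 beta and 3 gamma chains of laminins. They were followed in mouse embryonic stem cells that were harvested on 6 days while differentiating toward heart muscle. All libraries came from untreated cells of the TBX5-FTA line, a single line on the A2Lox.cre background, and differ by day alone. The groups were D5, D6 and D7, named cardiac progenitor cells by the submitters, and D8, D10 and D15, named immature cardiomyocytes, with 3 libraries of poly(A) RNA a day and 18 in all.

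In a basement membrane, laminin trimers join at their short arms and are tied by nidogens to a second network of type IV collagen. Integrins on the cell bind the far end of the laminin alpha chain, or bind collagens, fibronectin and other ligands, and pass the contact to the actin cytoskeleton. The alpha subunit sets most of the choice of ligand: alpha3, alpha6 and alpha7 with beta1 are laminin receptors, alpha1, alpha2, alpha10 and alpha11 with beta1 are collagen receptors, and alpha5, alpha8 and the alphaV dimers read the arginine-glycine-aspartate motif of fibronectin and other proteins. Heart muscle cells lie in a basement membrane in which the alpha2 laminin chain is known as the muscle form, and alpha7 beta1 is their known laminin receptor.

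Library totals ran from 5257601 to 7122093 counts. Of the 37 genes, 30 passed the filter on low counts and were tested among 13116 genes, 19 of them integrins and 11 laminins. Marker levels moved with the days: summed over 10 cardiomyocyte genes, all of which rose, levels were 4374 to 7353 CPM (counts scaled to library size) at D15 and 246 to 316 CPM at D5, and summed over 10 fibroblast and matrix genes, all of which also rose, they were 38387 to 47436 CPM at D15 and 498 to 533 CPM at D5, where Dpt had no count. In bulk RNA, more cells of a type and more RNA per cell cannot be told apart, and the part of these markers in the results on integrins and laminins was not tested. Nothing in the labels states that same-day libraries are from separate cultures, so p-values measure the spread between these libraries, which may be technical.

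The promoters of 3 genes are shown because their genes rose by different routes: Itga8 mostly at 1 step, Lama2 across all days, and Itga4 over several days before a fall. RefSeq windows (GRCm38.p6) run from 250 bases before to 50 bases after a gene's start, 300 bases in all, and are printed 5′ to 3′ on the gene's strand with CG dinucleotides in capitals. Itga8 lies on chromosome 2, minus strand, window chr2:12301895-12302194. Itga4 lies on chromosome 2, plus strand, window chr2:79255176-79255475. Lama2 lies on chromosome 10, minus strand, window chr10:27616893-27617192. The start that RefSeq gives Lama2 lies 2816 bases inside the gene as GENCODE M21 bounds it, where a retained-intron transcript sets the outer end, and 99 bases before the outermost start of a protein-coding transcript.
Itga8: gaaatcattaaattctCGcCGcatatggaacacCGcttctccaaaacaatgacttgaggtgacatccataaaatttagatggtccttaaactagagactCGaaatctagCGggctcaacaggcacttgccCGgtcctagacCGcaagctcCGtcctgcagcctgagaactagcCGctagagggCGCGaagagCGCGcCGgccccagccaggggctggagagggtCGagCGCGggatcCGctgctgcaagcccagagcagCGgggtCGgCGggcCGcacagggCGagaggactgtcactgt
Itga4: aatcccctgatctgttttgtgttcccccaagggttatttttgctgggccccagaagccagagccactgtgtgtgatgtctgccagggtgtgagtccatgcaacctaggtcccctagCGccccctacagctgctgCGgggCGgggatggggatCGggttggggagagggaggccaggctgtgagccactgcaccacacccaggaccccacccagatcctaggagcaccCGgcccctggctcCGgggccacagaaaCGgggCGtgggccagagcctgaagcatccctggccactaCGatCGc
Lama2: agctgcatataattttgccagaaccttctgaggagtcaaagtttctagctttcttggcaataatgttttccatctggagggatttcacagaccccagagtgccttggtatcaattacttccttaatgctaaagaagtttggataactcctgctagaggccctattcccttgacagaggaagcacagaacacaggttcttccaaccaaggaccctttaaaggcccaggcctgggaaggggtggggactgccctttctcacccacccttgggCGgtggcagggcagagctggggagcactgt
The Itga8 window held 23 CG dinucleotides, the Itga4 window 10 and the Lama2 window 1. The RefSeq table held 26 windows for 23 of the 37 genes, with a median of 11 CG dinucleotides, against a median of 7 over all 32851 windows. Of the 26, 6 start over 1000 bases inside the gene as GENCODE M21 bounds it (those of Lama2, Itga9 and Lamb3, and 1 each of Itga3 and Itgb6). Both strands were searched for 5 short motifs. The GC box GGGCGG was present in 12 of the 26 windows (46.2%) and in 35.7% of all windows. It occurred once in the Itga4 window, once in the Lama2 window and not in that of Itga8. CCAAT was found in 4 of 26 (15.4%) against 37.4% of all windows, TATAAA in 0 of 26 against 13.6%, the T-box core AGGTGT in 4 of 26 (15.4%) against 13.7%, and the GLI core GACCACCC in 0 of 26 against 0.807%. These are matches of letters in short windows, and no test was made of them.

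Most of these genes had gained by the end of the time course. Of the 30 tested, 25 were higher at D15 than at D5, 2 were lower and 3 were not called, where 40.3% of all tested genes were called higher and 37.7% lower (78% in either direction; edgeR quasi-likelihood test, adjusted p under 0.05). Their median log2 fold change was 1.80, against 0.02 over all genes tested. The 2 lower genes were Lama1 and Itga5, and those without a call were Itga2b, Itga4 and Itga9. For 8 of the 30 (Itga2, Itga7, Itga11, Itgal, Itgb3, Itgb4, Lama3 and Lamc3) the mean count at D5 was under 10, so the filter kept them through the days on which they were higher. Of the other 22, 17 were higher, 2 lower and 3 not called. The median of 1.80 includes the 8 genes under 10 counts at D5, all of which were called higher. Together the 37 genes took 0.611% to 0.653% of a library's counts at D15, against 0.415% to 0.425% at D5. For integrins alone the share was 0.326% to 0.345% at D15 and 0.190% to 0.191% at D5. For laminins it was 0.275% to 0.308% at D15 and 0.225% to 0.233% at D5, with a low of 0.145% to 0.175% at D7.

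**Figure D1:**
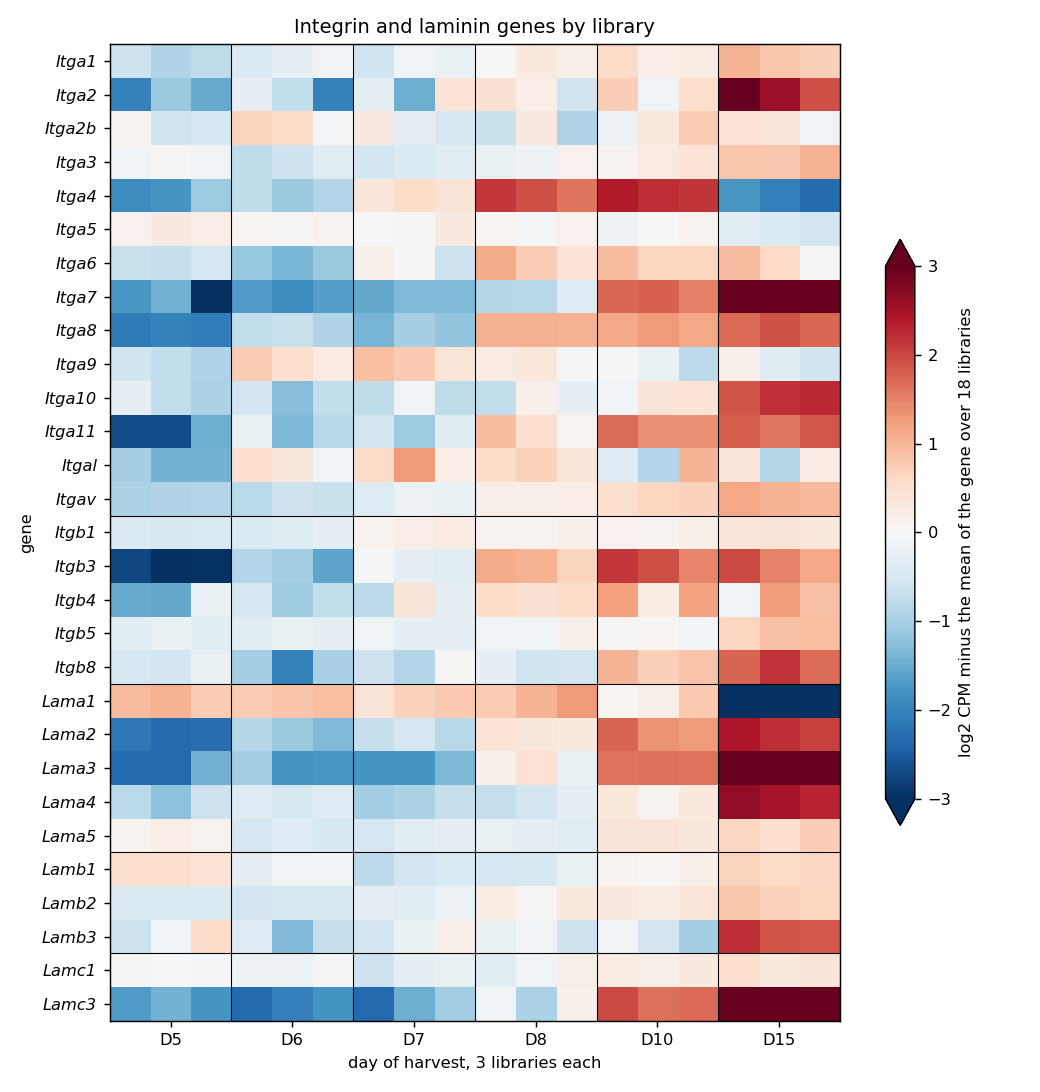
Levels of integrin and laminin genes in each library, as log2 CPM (prior count 2) minus the gene's mean over the 18 libraries, with genes down the page and libraries grouped by day from D5 to D15. Red is above and blue below the gene's mean, and Lama1 and Itga5 are the genes called lower at D15 than at D5.

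The laminin alpha chains, which carry the part that cells bind, changed most in their proportions. Lama1 (chromosome 17, 67697259 to 67822647, mm10) encodes the alpha1 chain of early embryonic basement membranes. Its levels were 6.17, 8.32 and 12.3 CPM in D15 libraries, against 199.6, 227 and 242 CPM in D5 libraries. The groups were far apart, and Lama1 had the largest fall among these genes, with a log2 fold change of -4.63 ± 0.27 (SE; edgeR adjusted p = 1.91e-09). At D8 its levels were still 199.8, 241 and 284 CPM and at D10 they were 123, 133 and 203 CPM. Most of the fall thus lay between D10 and D15 (log2 fold change -4.08 ± 0.28, edgeR adjusted p = 3.99e-08). An earlier fall, at D10 against D8, was called at -0.66 ± 0.19 (edgeR adjusted p = 0.0201), but was lost when only those days were fitted (adjusted p = 0.132) or when 1 of 3 single libraries of D8 or D10 was left out (adjusted p of 0.0776 to 0.0867).

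Lama2 (chromosome 10, 26980036 to 27619758, minus strand) encodes the alpha2 chain known from muscle. It had 109, 121 and 141 CPM in D15 libraries, against 5.03, 5.04 and 5.67 CPM in D5 libraries, a log2 fold change of 4.56 ± 0.15 (edgeR adjusted p = 2.75e-21). Its levels climbed through all days, with means of 5.25 CPM at D5, 12.0 at D6, 16.1 at D7, 33.0 at D8, 72.3 at D10 and 124 at D15. All 5 steps between neighbouring harvests were called, with log2 fold changes of 1.20, 0.42, 1.04, 1.13 and 0.77, and libraries of neighbouring days did not overlap at any of them. The call at D7 against D6 (edgeR adjusted p = 0.0442) was lost with only those days fitted (0.0660), in DESeq2 (0.0537), in limma-voom (0.123) and without any of 8 single libraries (up to 0.192).

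Lama4 (chromosome 10, 38965515 to 39110188), the alpha4 chain known from vessels and heart, rose late. In D15 libraries it had 265, 303 and 347 CPM, against 23.0, 30.7 and 35.1 CPM in D5 libraries (log2 fold change 3.36 ± 0.13, edgeR adjusted p = 6.12e-16). At D8 it was still at 33.4, 36.3 and 44.1 CPM, overlapping D5, and the step from D10 to D15 carried a log2 fold change of 2.25 ± 0.12 (edgeR adjusted p = 1.46e-12).

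Lama5, the alpha5 chain found in most basement membranes, dipped and recovered. Its mean was 348 ± 13.4 CPM at D5, 230.4 ± 9.88 at D6, 246 ± 18.6 at D7, 263 ± 9.35 at D8, 409 ± 5.73 at D10 and 485 ± 41.4 at D15 (SD, n = 3 a day). The fall at D6 against D5 (log2 fold change -0.60) and the rises at D10 against D8 (0.64) and at D15 against D10 (0.25) were called. Lama3, the alpha3 chain of epithelial laminin, had 299 summed counts at D15 and 2 at D5, a ratio of 182 with a 95% counting interval of 49.9 to 1509, and its level at D15 was 14.5, 16.4 and 19.8 CPM.

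The mix of alpha chains can be compared after division by exon length, as the share of each gene in the summed CPM per kilobase of its class. Lama1 held 0.776% to 1.63% of the alpha chain signal at D15 and 38.2% to 42.3% at D5. Lama4 held 28.2% to 35.0% at D15 and 3.23% to 5.40% at D5, and Lama2 held 8.56% to 10.5% at D15 and 0.520% to 0.619% at D5. Both gained in every D15 library. The share of Lama5 depended on the length used: 51.8% to 59.2% at D15 and 53.0% to 55.8% at D5 with all exons merged, but 36.4% to 44.2% at D15 and 50.2% to 52.4% at D5 with the longest transcript, by which Lama4 held 42.0% to 49.1% at D15.

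**Figure D2:**
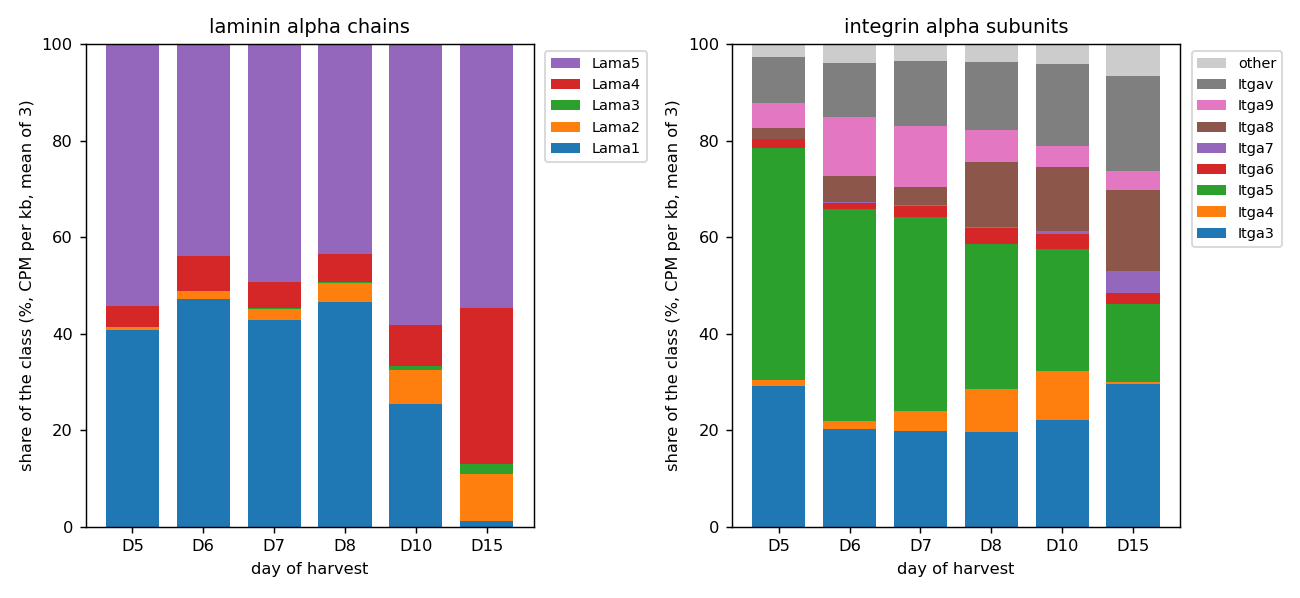
Share of each gene in the summed CPM per kilobase of merged exons of its class (y axis, %; mean of 3 libraries), by day of harvest. Among laminin alpha chains Lama1 averages 1.19% at D15 and 40.8% at D5, and Lama4 averages 32.4% at D15 and 4.39% at D5.

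Among the beta chains, the broadly found Lamb1 fell and then returned. Its means were 685 ± 17.4 CPM at D5, 445 ± 33.3 at D6, 331 ± 38.0 at D7, 381 ± 41.7 at D8, 539.6 ± 14.8 at D10 and 774 ± 23.6 at D15 (SD, n = 3 a day). At D15 it stood slightly above D5 (log2 fold change 0.18 ± 0.07, edgeR adjusted p = 0.0329). That small rise was not called when any of the 3 D5 libraries or 1 of the D15 libraries was left out (adjusted p of 0.0513 to 0.102). Lamb2, a chain known from synapses and the kidney filter, had 268, 277 and 304 CPM in D15 libraries, against 126, 127 and 128 CPM in D5 libraries (log2 fold change 1.16 ± 0.07, edgeR adjusted p = 3.72e-15). Lamb2 is also listed as an older symbol of Lamc1, but Lamc1 was counted separately under its own symbol. At D5, Lamc1 had 17287 summed counts and Lamb2 had 2714. Its share of the beta chain signal per kilobase was 35.6% to 37.3% at D15 and 22.9% to 23.3% at D5, with a high of 43.8% to 47.3% at D8.

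The gamma chains were dominated by Lamc1, the gamma chain of most laminins, at every day. It rose by a log2 fold change of 0.38 ± 0.10 at D15 against D5 (edgeR adjusted p = 0.00229), with 989, 1053 and 1124 CPM in D15 libraries and 797, 798 and 832 CPM in D5 libraries. Lamc3, a less common gamma chain, had 43.0, 56.8 and 61.4 CPM in D15 libraries, against 0.817, 0.872 and 1.12 CPM in D5 libraries (log2 fold change 5.84 ± 0.27, edgeR adjusted p = 6.48e-18). Its means were 0.621 CPM at D6 and 1.02 CPM at D7, with no called step, and it then rose at each of the 3 later steps by 1.55, 2.12 and 2.06 on the log2 scale. Its share of gamma chain signal per kilobase was 5.52% to 6.79% at D15 and 0.138% to 0.189% at D5.

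Lamb3, a beta chain of epithelial laminins, was low until D10 and higher at D15. It had 16.1, 16.6 and 21.2 CPM in D15 libraries, against 2.62, 3.91 and 6.40 CPM in D5 libraries (log2 fold change 2.05 ± 0.27, edgeR adjusted p = 8.91e-08), and its rise lay between D10 and D15 (2.61 ± 0.30, edgeR adjusted p = 2.18e-08). Lama3, the epithelial alpha chain, was called higher earlier, at each step from D8 on. Summed epithelial markers were 37.2 to 44.8 CPM at D15 and 1164 to 1438 CPM at D5, the opposite direction, and the part of these markers in the result was not tested.

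**Figure D3:**
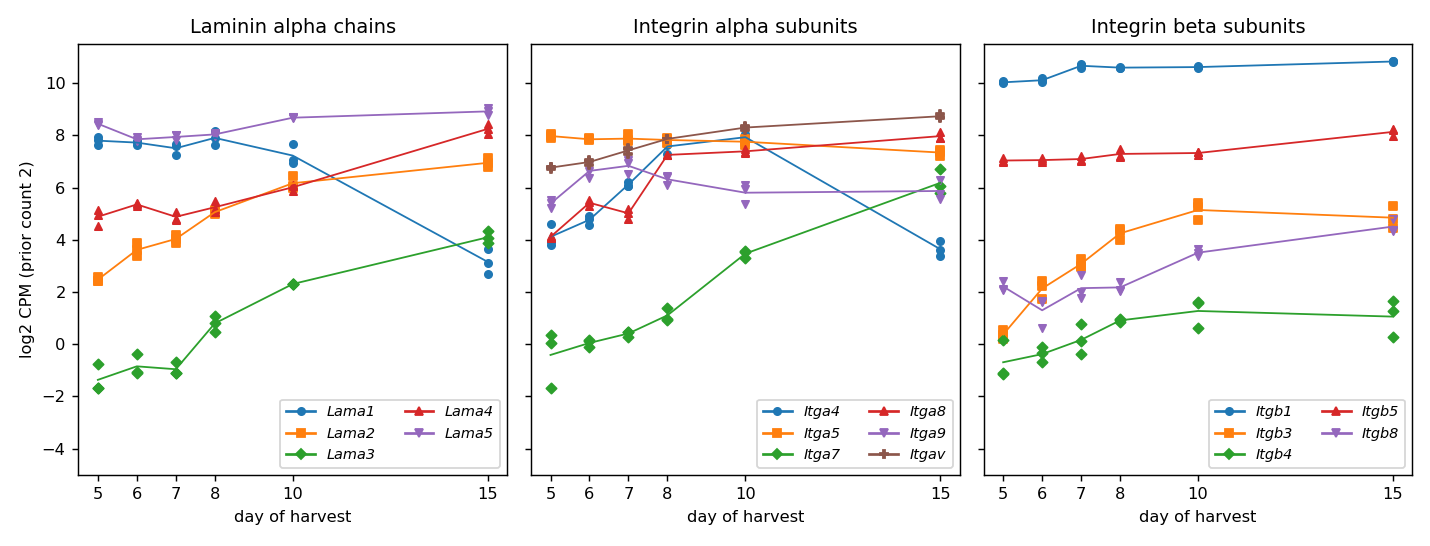
Levels of laminin alpha chains, integrin alpha subunits and integrin beta subunits by day of harvest (x axis, days), as log2 CPM with a prior count of 2 (y axis); points are libraries and lines join the means of 3. Lama1 drops between D10 and D15, Lama2 climbs from day to day, and Itga4 climbs to D10 and then drops.

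The receptors for laminin rose alongside. Itgb1, the beta1 subunit that pairs with most alpha subunits, was the most abundant of these genes per kilobase on both outer days, at 446 CPM per kilobase at D15 and 256 at D5. Its levels were 1782, 1824 and 1851 CPM in D15 libraries, against 1025, 1042 and 1071 CPM in D5 libraries (log2 fold change 0.80 ± 0.05, edgeR adjusted p = 5.95e-14). Of its rise, the called steps were D7 against D6 (0.55) and D15 against D10 (0.21).

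Itga7, the laminin receptor subunit of heart and skeletal muscle, stayed at 2.33 CPM or less in every library up to D8. It had 54.8, 65.9 and 104 CPM in D15 libraries, against 0, 0.727 and 0.978 CPM in D5 libraries (log2 fold change 7.06 ± 0.33, edgeR adjusted p = 1.37e-15). At D8 it stood at 1.60, 1.66 and 2.33 CPM and at D10 at 9.66, 11.2 and 11.6 CPM, so the last 2 steps, of 2.56 ± 0.34 and 2.79 ± 0.22 on the log2 scale, held the called rises. Itga3, which binds the alpha5 and alpha3 laminin chains, had 319.6, 323 and 374 CPM in D15 libraries, against 170.4, 173 and 186 CPM in D5 libraries (log2 fold change 0.94 ± 0.11, edgeR adjusted p = 1.52e-07). Itga6, a laminin receptor subunit of many epithelia, had 26.5, 41.1 and 51.5 CPM in D15 libraries, against 16.8, 16.9 and 18.8 CPM in D5 libraries (log2 fold change 1.18 ± 0.24, edgeR adjusted p = 0.000356). Itgb4, the beta subunit that joins alpha6 in hemidesmosomes, was scarce throughout, with 0.882, 2.08 and 2.83 CPM at D15 and 0.140, 0.145 and 0.817 CPM at D5.

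All 4 subunits of collagen receptors were higher at D15. Itga1 had 87.9, 95.3 and 109.5 CPM in D15 libraries, against 28.5, 31.6 and 34.9 CPM in D5 libraries (log2 fold change 1.62 ± 0.13, edgeR adjusted p = 3.55e-11). Itga10, known from cartilage, had 23.1, 28.5 and 29.9 CPM at D15 and 3.0, 3.49 and 5.09 CPM at D5; only 69.4% of its 50-base stretches were unique and it shares exons with the model Gm42957, so its counts are uncertain. Per kilobase of merged exons, Itga1 and Itga10 overlapped at D15, at 5.25 ± 0.59 and 5.24 ± 0.69 CPM (SD, n = 3). Itga11, a fibrillar collagen receptor of fibroblasts, had 113 summed counts at D15 and 3 at D5 (ratio 45.8, counting interval 15.3 to 226). Itga2 had 140 summed counts at D15 and 3 at D5 (ratio 56.8, counting interval 19.0 to 279). The D15 libraries lay above the D5 libraries for all 4, as they did for 26 of the 30 genes. A matching share over all genes was not computed. Itga2 and Itga11 passed the filter only through later days, so their separation follows in part from the filter.

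Among the subunits that read the arginine-glycine-aspartate motif, Itga5 fell while Itgav and Itga8 rose. Itga5, the classical fibronectin receptor, had 147, 165 and 175 CPM in D15 libraries, against 239, 252 and 263 CPM in D5 libraries (log2 fold change -0.63 ± 0.08, edgeR adjusted p = 1.66e-08). It was 216 ± 18.6 CPM at D10 (SD, n = 3), and only the last step was called (-0.41 ± 0.08). Fn1, the gene of fibronectin, named here after its values were seen, moved the other way, at 7784, 7821 and 8925 CPM in D15 libraries and 1875, 2028 and 2176 CPM in D5 libraries.

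Itgav, the alphaV subunit, rose at each of the 5 steps, by 0.22, 0.45, 0.44, 0.44 and 0.44 on the log2 scale, though the D6 call was lost without any of 3 single libraries (edgeR adjusted p of 0.0635 to 0.0937). It had 402, 419 and 456 CPM in D15 libraries, against 105, 109.6 and 110.2 CPM in D5 libraries (log2 fold change 1.97 ± 0.07, edgeR adjusted p = 1.82e-20). Its partners differed in timing. Itgb3 had 21.7, 27.4 and 38.6 CPM in D15 libraries, against 0.838, 0.954 and 1.16 CPM in D5 libraries (log2 fold change 4.89 ± 0.29, edgeR adjusted p = 1.54e-14), and it rose at the first 4 steps and not at the last. Itgb5 changed by called amounts only at the last step (0.81 ± 0.08), to 249, 295 and 300.3 CPM at D15, against 126, 129 and 138 CPM at D5. Itgb8, the partner known for activating latent TGF-beta, had 19.7, 20.6 and 27.8 CPM in D15 libraries, against 3.91, 4.07 and 5.04 CPM in D5 libraries, with its called rises after D8 of 1.38 and 1.03 on the log2 scale. Its dip at D6 and rise at D7 were also called, but each was lost without single libraries (edgeR adjusted p of up to 0.140 for the dip and 0.227 for the rise).

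Itga8, the subunit that pairs with beta1 and binds nephronectin, had the strongest evidence of change across days of these genes, ranking 77 of 13116 by F. Its levels were 236, 241 and 277 CPM in D15 libraries, against 16.4, 16.9 and 17.6 CPM in D5 libraries (log2 fold change 3.89 ± 0.09, edgeR adjusted p = 1.83e-24). More than any other step, D8 against D7 moved it, with 151, 152 and 153 CPM in D8 libraries against 27.7, 32.5 and 36.4 CPM in D7 libraries (2.24 ± 0.09, edgeR adjusted p = 5.15e-17). It also rose at D6 (1.33) and D15 (0.59), fell at D7 (-0.40), and was not called at D10. Npnt, the gene of nephronectin, rose by a log2 fold change of 2.45 ± 0.11 at D15 against D5, with 184, 206 and 234 CPM in D15 libraries and 37.5, 37.8 and 38.7 CPM in D5 libraries.

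In shares of the integrin alpha signal per kilobase of merged exons, Itga5 held 15.3% to 16.8% at D15 and 47.0% to 48.8% at D5. Itga8 held 15.2% to 18.8% at D15 and 2.16% to 2.19% at D5, and Itgav held 19.2% to 20.2% at D15 and 9.30% to 9.79% at D5. Itga3 held 26.9% to 33.6% at D15 and 28.5% to 29.7% at D5, ranges that overlap. Itga5 was thus the leading alpha subunit at D5 and Itga3 at D15, and with the longest transcript the leading shares were 23.7% to 30.4% for Itga3 and 22.5% to 23.1% for Itgav at D15.

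Itga4 and Itga9 encode related subunits that bind VCAM1, fibronectin variants and tenascin C, and both peaked in between. Itga4 (chromosome 2, 79255426 to 79333123) had 13.7, 14.9 and 24.0 CPM at D5, 23.4, 27.7 and 30.1 at D6, 66.4, 66.9 and 74.8 at D7, 157, 197 and 223 at D8, 227, 239 and 266 at D10 and 10.1, 11.9 and 15 at D15. The D15 libraries all lay below every D10 library and overlapped those of D5. The rises at D6 (0.62), D7 (1.36) and D8 (1.47) were called, and the fall at D15 against D10 was -4.32 ± 0.19 (edgeR adjusted p = 2.44e-11). The call at D6 was lost without the filter on low counts (adjusted p = 0.0510) and without any of 4 single libraries of D5 or D6 (adjusted p of 0.0723 to 0.104). At D15 against D5 the log2 fold change of -0.52 ± 0.24 was not called (edgeR adjusted p = 0.0556), but was called when only those days were fitted (0.0394), in DESeq2 (0.0117) and without 5 single libraries (0.0168 to 0.0363).

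Vcam1, the gene of a ligand of the alpha4 dimer and named after its values were seen, had 66.9, 67.5 and 71.6 CPM at D15 and 10.4, 14.5 and 25.8 CPM at D10. Epicardium is a known site of Itga4, and summed levels of the 9 epicardium and mesothelium markers were 3929 to 4158 CPM at D15 and 2007 to 2260 CPM at D10, a sum that moved opposite to Itga4. Of the 9, 6 were called higher at D15 than at D10, Wt1 and Bnc1 were not called, and Tbx18 was lower, as Itga4 was, with 142, 157 and 165 CPM at D15 and 261, 309 and 313 CPM at D10 (log2 fold change -0.93 ± 0.12, edgeR adjusted p = 3.24e-06). Summed endothelial markers were 372 to 555 CPM at D15 and 281 to 317 CPM at D10. The part of either list in the fall of Itga4 was not tested.

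Itga9 peaked earlier, with 36.8, 42.2 and 46.1 CPM at D5, 83.0, 98.7 and 119.6 at D6, 90.8, 122 and 133 at D7, 68.5, 83.6 and 87.4 at D8, 40.6, 61.6 and 68.6 at D10 and 46.7, 54.2 and 77.8 at D15. Every D6 library lay above every D5 library. Only the rise at D6 was called among the steps (1.27 ± 0.23, edgeR adjusted p = 0.000866). At D15 against D5 its value of 0.51 ± 0.24 was not called (edgeR adjusted p = 0.0690), though the libraries did not overlap, and it was called with only those days fitted (0.0330), in DESeq2 (0.0246) and without 1 of 2 single libraries (0.0334 and 0.0447).

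Integrins of blood cells had few counts. The 7 genes below the filter were Itgad, Itgae, Itgam, Itgax, Itgb2, Itgb6 and Itgb7, 6 of them subunits of leukocytes and Itgb6 a partner of alphaV in epithelia. Summed over 3 libraries, Itgam had 0 counts at D15 and 7 at D5, with a high of 19 at D6, but only 33.7% of its 50-base stretches were unique and it shares exons with the model Gm49368, so its counts are uncertain. Itgb2, the shared beta subunit of leukocyte integrins, had 3 counts at D15 and 10 at D5. Itgb7 had 13 counts at D15 and 2 at D5, a ratio of 7.91 with a counting interval of 1.79 to 72.2. No other gene of the 7 passed 10 summed counts on any day, and Itgad had a single count in all, at D8.

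Itgal, the alphaL subunit, passed the filter at low level, with 0.354, 1.12 and 1.23 CPM at D15 and 0.136, 0.140 and 0.291 CPM at D5 (log2 fold change 2.28 ± 0.86, edgeR adjusted p = 0.0180). The call was lost without any of 4 single libraries (adjusted p of 0.0518 to 0.0681). Itga2b, the alpha subunit of platelets, was the 1 gene of the 30 that was not called across days (edgeR adjusted p = 0.173), where 88.9% of all tested genes were called. The 10 blood markers summed to 19.4 to 20.7 CPM at D15 and 3.68 to 4.75 CPM at D5. Of these, 2 passed the filter, Csf1r, called higher, with 14.1, 16.1 and 16.5 CPM at D15 and 0, 0 and 0.136 CPM at D5, and Cd68, not called, while Ptprc, Sfpi1, Cd3e and Tyrobp were among those with no count at D15. Of the 9 megakaryocyte markers the summed level was 1.95 to 3.68 CPM at D15 and 0.136 to 0.436 CPM at D5. The part of either list in these integrin counts was not tested.

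**Figure D4:**
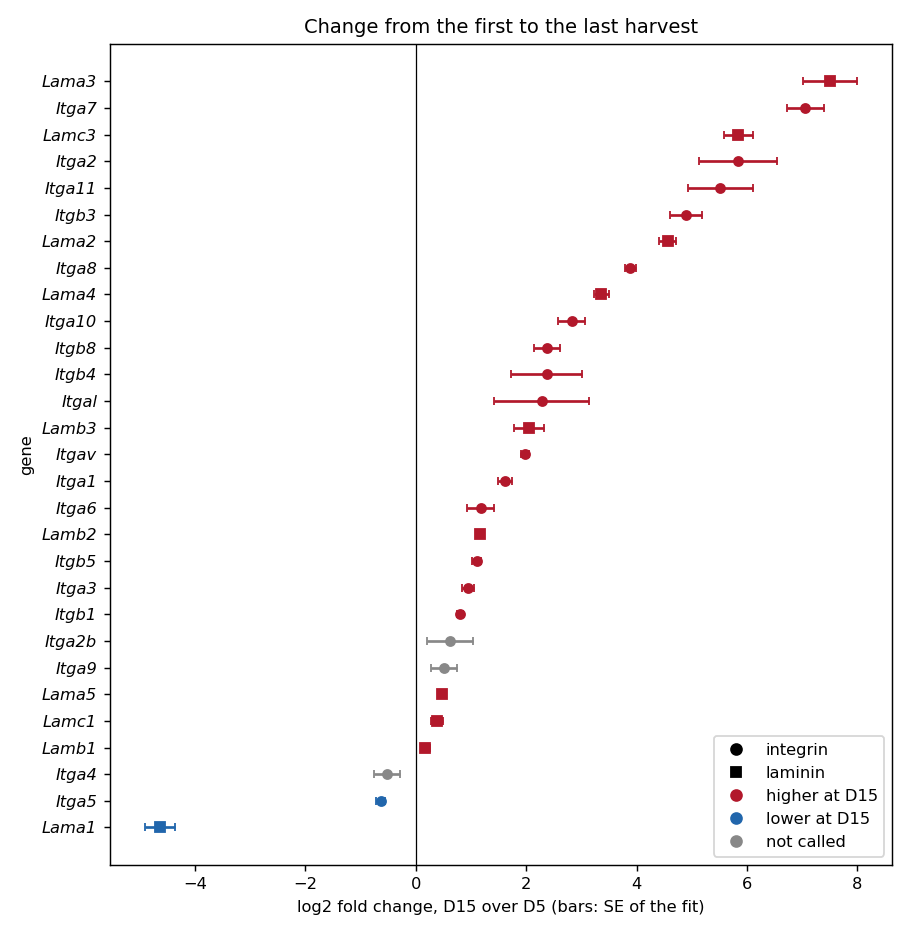
Log2 fold change of D15 over D5 for integrin and laminin genes (x axis), with bars for the SE of the edgeR fit; genes run down the y axis. Lama1 at -4.63 and Itga5 at -0.63 are the called falls, and Lama3 at 7.50 and Itga7 at 7.06 are farthest to the right.

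The steps between neighbouring harvests held different parts of this change. At D6 against D5, 10 genes were higher and 4 lower of the 30 (all genes: 18.2% higher, 16.4% lower, 34.6% in all), with Itgb3, Itga8, Itga9 and Lama2 among the rises and Itga3, Itgb8, Lama5 and Lamb1 the falls. At D7 against D6, 9 were higher and 3 lower (all genes: 15.1% and 15.3%, 30.4% in all), the falls being Itga8, Lama4 and Lamb1. At D8 against D7, where the labels change from progenitor cells to cardiomyocytes, 14 were higher and 0 lower (all genes: 12.6% and 11.6%, 24.2% in all). With only those days fitted, 1 gene, Itga9, was lower at that step. At D10 against D8, 14 were higher and 1, Lama1, was lower (all genes: 17.3% and 13.9%, 31.2% in all). At D15 against D10, 18 were higher and 4 lower (all genes: 26.4% and 24.4%, 50.8% in all), with Itga4, Itga5 and Lama1 among the falls. Genes with mean counts under 10 at D5, which the filter kept through later, higher days, are among the rises at every step. They include Itga11, Itgb3, Lama3 and Lamc3 at D8 against D7, and Itga2, Itga7, Lama3 and Lamc3 at D15 against D10. The counts by direction thus follow in part from the filter.

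**Figure D5:**
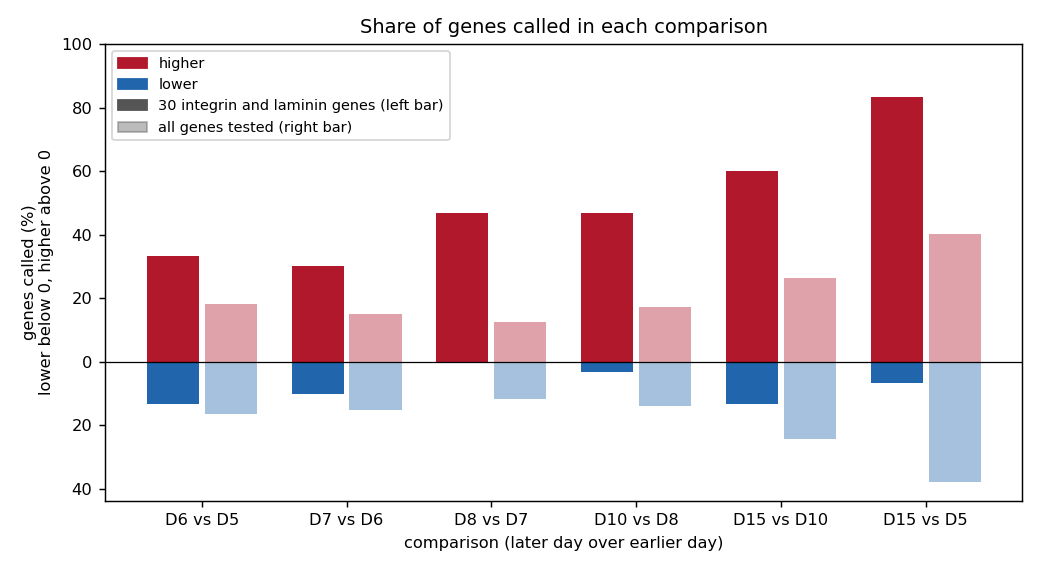
Percent of genes called higher (above 0) and lower (below 0) in each comparison of a later with an earlier day; the left bar of each pair is the 30 integrin and laminin genes and the right bar all 13116 genes tested. At D8 against D7 the left bar has 14 genes above 0 and 0 below. The left bars include genes with mean counts under 10 at D5 that the filter kept through later, higher days.

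D8, D10 and D15, labelled immature cardiomyocytes, were set against D5, D6 and D7, labelled progenitor cells, with each stage the mean over its 3 days. At the later stage 25 of the 30 genes were higher and 2 lower (all genes: 39.3% and 37.8%, 77.1% in all). Itga2b, Itga9 and Itgal were not called. The libraries of the later days all lay above those of the earlier days for 11 of the 30 genes and overlapped them for 19. The matching share over all genes was not computed. Of the genes called across days, 26 had day means at least 1 log2 unit apart, and of these 18 (69.2%) were highest at D15, 4 at D10 (Itga4, Itgb3 and Itgb4 among them), 2 at D8 (Itga6 and Lama1), 2 at D7 (Itga9 and Itgal) and 0 at D5 or D6. Of 6486 such genes in all (49.5% of those tested), 45.3% were highest at D15 and 23.8% at D5. The 18 include Itga2, Itga7, Itga11, Lama3 and Lamc3, with mean counts under 10 at D5, which the filter kept through later, higher days. These genes, and likewise Itgb3 and Itgb4, are also among the 25 higher between the stages.

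Genes that work with these proteins were followed in 4 lists. Listed genes with few or no counts at D5 passed the filter through other days, so list counts and medians follow in part from the filter. How many listed genes this holds for was not counted. Of 18 partners of laminins in the basement membrane, 14 were higher at D15 than at D5, 3 were lower and 1 was not called (all genes: 40.3% higher, 37.7% lower, 78% in all), with a median log2 fold change of 2.29, against 0.02 over all genes. Nid1, the nidogen that links laminin to collagen, had 698, 733 and 740.4 CPM in D15 libraries, against 80.5, 80.6 and 89.0 CPM in D5 libraries (log2 fold change 3.12 ± 0.08, edgeR adjusted p = 2.71e-24). Col4a2, a chain of type IV collagen, had 2524, 2760 and 2889 CPM in D15 libraries, against 263, 285 and 299.7 CPM in D5 libraries (log2 fold change 3.27 ± 0.08). Nid2 rose by 2.17 and Col4a5 by 2.42 on the log2 scale. The lower genes were Col18a1 (-1.46), which encodes the collagen that yields endostatin, Smoc1 (-1.06) and Agrn (-0.62), which encodes the laminin-binding proteoglycan agrin. Hspg2, the gene of perlecan, was not called (log2 fold change 0.07 ± 0.12).

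Of 18 tested ligands of integrins other than laminins, 17 were higher and 1 was lower (all genes: 40.3% and 37.7%), with a median log2 fold change of 3.32. Thbs2, a thrombospondin, had 601, 681 and 709.9 CPM in D15 libraries, against 0.872, 1.23 and 1.40 CPM in D5 libraries (log2 fold change 9.15 ± 0.19, edgeR adjusted p = 1.65e-20). At this D5 level the filter kept Thbs2 only through later, higher days. Icam1, the ligand of alphaL beta2, rose by 5.88 and Emilin1, a ligand of alpha4 and alpha9 dimers, by 3.32 on the log2 scale. Edil3, an alphaV ligand, had 1.76, 2.12 and 6.88 CPM at D15 and 29.9, 30.3 and 33.6 CPM at D5 (-3.15 ± 0.25, edgeR adjusted p = 1.97e-10). This list shares collagen genes with the fibroblast markers above.

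Of 18 tested genes of other laminin receptors and of enzymes that glycosylate them, 9 were higher, 4 lower and 5 not called, with a median log2 fold change of 0.36. The share called in either direction was near that of all genes (78%). By direction, 50% were higher and 22.2% lower, against 40.3% and 37.7% of all genes. Dmd, the gene of dystrophin, had 65.1, 75.3 and 77.9 CPM in D15 libraries, against 2.18, 3.35 and 3.95 CPM in D5 libraries (log2 fold change 4.52 ± 0.19, edgeR adjusted p = 1.02e-18). Dag1, the gene of dystroglycan, rose by 1.21, Sgcb, a sarcoglycan, by 2.29 and Cd81, a tetraspanin, by 1.24 on the log2 scale. Utrn, which encodes the dystrophin relative utrophin, fell by 0.64 on that scale, to 213, 233 and 249 CPM at D15, against 352, 355 and 373 CPM at D5. Large, an enzyme that adds sugars to dystroglycan, was lower by a log2 fold change of -0.85 and Rpsa by -0.94, with uncertain counts because near-identical copies exist. Bcam, Cd9, Pomgnt1 and Pomt1 were among the genes not called.

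Of 40 adaptors on the inner side of integrins, 22 were higher, 8 lower and 10 not called, with a median log2 fold change of 0.25. Here too the share called in either direction was near that of all genes (78%). By direction, 55% were higher and 20% lower, against 40.3% and 37.7% of all genes. Tns1, a tensin that ties integrins to actin, had 445, 501 and 573 CPM in D15 libraries, against 21.2, 23.6 and 24.2 CPM in D5 libraries (log2 fold change 4.46 ± 0.11, edgeR adjusted p = 3.58e-20). The other tensins Tenc1, now Tns2, and Tns3 rose by 3.07 and 1.66 on the log2 scale. Ptk2b, the gene of the focal adhesion kinase relative Pyk2, rose by 4.22 ± 0.17, with 72.8, 73.3 and 76.6 CPM at D15 and 3.41, 3.93 and 4.61 CPM at D5. Focal adhesion kinase itself, Ptk2, was called lower. The other lower genes, named here after their values were seen, were Actn1, Crkl, Fermt1, Flna, Src, Tgfb1i1 and Tln2.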

How the data were processed

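RNA of 18 libraries was measured, 3 on each of 6 days. The deposited values are raw counts per gene symbol. Per the labels, a TruSeq RNA v2 kit and single-end reads of 50 bases were used, and the submitters' processing notes name STAR and mm10. What counted the reads, against which annotation and with which strand setting is not given in the sources used here. Of 21 columns in the table, 3 matched no sample and were not used. Library pairs within days were checked for copies, with a chi-square over degrees of freedom of 2.21 to 9.23.

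Counts were tested with edgeR 4.0.16 (R 4.3.3): filterByExpr with a minimum count of 10, TMM scaling, a mean per day, robust quasi-likelihood F tests with 12 residual degrees of freedom, and Benjamini-Hochberg adjustment over 13116 genes, with calls under 0.05. The SE is the unshrunk log2 fold change over the square root of F. CPM values are TMM-scaled. Counting intervals are exact, at 95%, and cover counting error only. Exon lengths, exon overlaps and uniqueness came from GENCODE M21. Exons of 12 of the 37 genes overlap another gene, by under 10% of their length in 9. Tested members could be named, except for results that are not reported here, and of each pathway list the 4 called genes with the smallest p at D15 against D5 and small sets of exceptions. Members and lists were chosen with earlier results of these data known. Scripts were tested on simulated data. Alternatives used RLE factors, 2 other filters, the compared days alone, limma-voom 3.58.1, DESeq2 1.42.0 and each library left out.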

Additional observations from a re-analysis of the deposited data

How the results depend on the processing

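The count of called genes stayed within 1.5 times its value under every alternative run, and no gene changed direction while called. Over scaling, filters, tools and the compared days alone, 28 to 30 genes were called across days, 26 to 29 at D15 against D5, 26 to 29 between the stages, 13 to 17 at D6 against D5, 9 to 12 at D7 against D6, 13 to 16 at D8 against D7, 13 to 16 at D10 against D8 and 20 to 22 at D15 against D10. With 1 library left out in turn the counts were 29 in every fit across days, 25 to 28 at D15 against D5, 27 to 28 between the stages, 11 to 15 at D6 against D5, 9 to 13 at D7 against D6, 12 to 17 at D8 against D7, 11 to 16 at D10 against D8 and 21 to 23 at D15 against D10. Single genes crossed the threshold more often at the steps: 9 of 30 at D6 against D5, 5 at D7 against D6, 8 at D8 against D7, 6 at D10 against D8 and 2 at D15 against D10, against 4 at D15 against D5 (Itga4, Itga9, Itgal and Lamb1) and 1 between the stages (Itga9). The cause was not tested. No paired analysis was possible because the columns carry no replicate number. With 3 libraries a day and 5257601 to 7122093 counts each, some genes had only a few counts on some days. Fold changes of such genes, among them Itga2, Itga11, Itgal and the leukocyte integrins, are uncertain in size. The part of depth was not tested.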
